A study of Caenorhabditis elegans with 18 samples.

Results

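Worms that had received a tocotrienol-rich fraction (TRF) before and after hydrogen peroxide (H2O2) were compared here with untreated control worms, 4 TRF+H2O2+TRF arrays against 5 control arrays, or 9 of the 18 arrays in the series. Members were all arrays carrying either of these titles, and the values compared were the signals of 22548 probe sets, of which 13529 passed a filter on low signals. All worms were wild-type Caenorhabditis elegans of strain N2, kept at 20°C on agar with the bacterium Escherichia coli OP50 as food, and each sample was total RNA from whole worms hybridised to 1 Affymetrix array. The TRF+H2O2+TRF worms were on TRF between hatching and adult day 3 and met H2O2 partway through, and the labels do not repeat the dose, length or stage of that exposure for them. The H2O2 group (n = 5) met 0.3 mM H2O2 for 2 h as L4 larvae, the TRF group (n = 4) took TRF throughout life, and the control worms (n = 5) received neither. The labels used here give no TRF dose, no vehicle for the control worms, no age at harvest for them, and no statement that replicates were separate cultures, so p-values cover only the spread among these 9 arrays, which may be technical. Control 5 is listed apart from controls 1 to 4, and no TRF+H2O2+TRF array is numbered 5. Whether it came from a separate batch was not tested. The series' design text lists other pairs of groups and not this one. Here TRF and H2O2 differ together, and their parts cannot be told apart from these 2 groups alone.

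TRF is a vitamin E preparation rich in tocotrienols, lipid-soluble antioxidants that can scavenge lipid radicals in membranes. H2O2 is a reactive oxygen species that cells remove with catalases, peroxiredoxins and glutathione peroxidases. In the worm, oxidants can engage the transcription factor SKN-1, which drives glutathione synthesis and glutathione transferases, and DAF-16, which drives genes such as sod-3 and mtl-1, while small heat shock proteins and organelle chaperones mark protein damage.

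The signals are MAS5 signals, an Affymetrix summary of each probe set on a linear scale, and folds are differences of log2(signal + 1), so they understate changes of dim genes. Over the tested probe sets, Pearson's correlation of log2 signals was 0.955 to 0.977 within TRF+H2O2+TRF, 0.942 to 0.976 within control and 0.946 to 0.989 between the groups. Some arrays matched an array of the other group more closely than any of their own. TRF+H2O2+TRF 3 correlated at 0.975 with control 5 and at 0.955 to 0.967 with the other arrays of its group. Control 5 correlated at 0.942 to 0.962 with the other controls. TRF+H2O2+TRF 2 correlated at 0.98 with control 1 and at most at 0.977 within its group. TRF+H2O2+TRF 4 correlated at 0.989 with control 4, the highest of all 153 pairs of arrays, at 0.987 with TRF 4, at 0.961 to 0.977 with the other TRF+H2O2+TRF arrays and at 0.954 to 0.975 with the other controls. The differences of T22F3.11 and F42A10.7 were larger without an array numbered 4, so both genes are given with and without it. Other values are not all given that way. Across 8 checks of array quality and of sperm, oocyte and embryo transcripts, the smallest adjusted p of two-sided exact permutation tests was 0.686. The smallest raw p they can give is 0.0159, so over 8 checks 1 alone could not reach an adjusted p under 0.05. These tests therefore do not show that the arrays were alike. The embryo list, genes switched on in embryos, had a mean log2 signal of 7.26 to 7.38 in TRF+H2O2+TRF and 7.27 to 7.61 in control. The sperm list differed strongly between single arrays. It was at 7.75, 8.39, 8.21 and 6.88 in TRF+H2O2+TRF arrays 1 to 4. In control arrays 1 to 5 it was at 8.37, 8.84, 8.33, 7.07 and 6.74. The arrays numbered 4 and control 5 were thus the lowest of both groups. TRF 4 was low too, at 6.39, but H2O2 4 was at 8.64. The part of sperm content in the other values was not tested. Because the RNA came from whole worms, fewer cells of a type and less RNA per cell cannot be told apart in any result that follows.

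**Figure D1:**
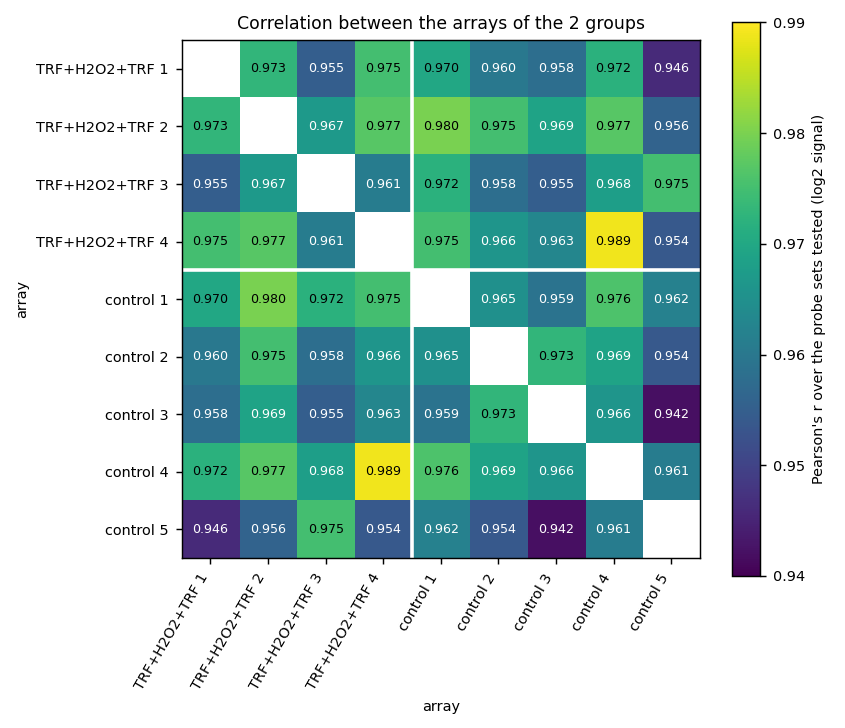
Pearson's correlation of log2 signals between each pair of the 4 TRF+H2O2+TRF arrays (first 4 rows and columns) and the 5 control arrays, over the tested probe sets; colour and number both give r. The highest value, 0.989, joins TRF+H2O2+TRF 4 and control 4, across the white line that divides the groups.

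No gene passed the test between TRF+H2O2+TRF and control worms. With limma, 0 of 13529 probe sets (0%) had a Benjamini-Hochberg adjusted p under 0.05, and the adjusted p of every named gene was 0.9999. At an unadjusted p under 0.05 there were 384 probe sets (2.84%), 257 with a higher mean (1.90%) and 127 with a lower mean (0.939%). This is a smaller share than the 0.05 that would be met on average if no probe set differed. The unpaired test named in the series' design, here the methods' t-test, gave 444 at that level and 0 after adjustment. The tilt towards higher means depended on the scaling, with 198 higher and 197 lower after quantile normalization and 162 higher and 173 lower after centring each array on its median. Signals did not overlap between the groups for 139 probe sets (1.03%), 73 higher (0.540%) and 66 lower (0.488%) in TRF+H2O2+TRF. If no probe set differed, 4 and 5 arrays would lie apart at an average rate of 0.0159, so this share too was smaller. Means were at least 2-fold higher for 29 probe sets (0.214%) and at least 2-fold lower for 9 (0.0665%). Leaving out TRF+H2O2+TRF 4 gave 1 call, F42A10.7, leaving out control 4 gave 1 call, T22F3.11, and leaving out both gave 0 calls with a smallest adjusted p of 0.0789.

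With 1 probe set for each of 10286 genes, 291 genes (2.83%) had an unadjusted p under 0.05, 188 higher (1.83%) and 103 lower (1.00%), and 119 genes (1.16%) did not overlap between the groups. The genes named next are the 12 of smallest p in each direction. They describe these 9 arrays and are not called differences.

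The first of them by p was T22F3.11, for which the files pair no name beyond the sequence identifier. Its signals were 371, 170, 175 and 187 in TRF+H2O2+TRF arrays 1 to 4 and 37.4, 34.3, 21.95, 162 and 28.04 in control arrays 1 to 5. All TRF+H2O2+TRF arrays lay above all controls, yet control 4 came close to them. The log2 fold change was 2.32 ± 0.492 (SE; limma 95% interval 1.25 to 3.39, unadjusted p = 0.000457), a 4.99-fold higher geometric mean. Without control 4 it was 2.80 ± 0.305, with a limma adjusted p of 0.0172, and with neither array numbered 4 it was 2.86. A second probe set of this gene also had a higher mean.

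F42A10.7, again a sequence identifier, gave 1427, 916, 1114 and 243 in TRF+H2O2+TRF arrays 1 to 4 and 304, 345, 309, 317 and 176 in control arrays 1 to 5. The first 3 TRF+H2O2+TRF arrays were far above the controls and the array numbered 4 lay among them. The log2 fold change was 1.45 ± 0.422 (SE; unadjusted p = 0.00483) over all arrays and 2.00 ± 0.240 without TRF+H2O2+TRF 4, with a limma adjusted p of 0.0455. In the TRF group, which shares the control arrays with this comparison, F42A10.7 had a log2 fold change of 2.38 against control, and in the H2O2 group 0.86. TRF+H2O2+TRF minus TRF was -0.94 and TRF+H2O2+TRF minus H2O2 was 0.59, both with a limma adjusted p of 0.9999. With the replicate number as a block, the difference of F42A10.7 from TRF had a limma adjusted p of 0.599.

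Of the other leading genes, best-1, a bestrophin of the chloride channel family, had signals of 430, 343, 375 and 431 in TRF+H2O2+TRF arrays and 213, 228, 127, 258 and 231 in control arrays. The groups did not overlap and the geometric mean was 1.91-fold higher (log2 0.93 ± 0.212). glo-3, needed to form the lysosome-related granules of the intestine, had signals of 296, 249, 298 and 250 in TRF+H2O2+TRF arrays and 140, 124, 146, 171 and 220 in control arrays. The highest control, array 5, stayed below the lowest TRF+H2O2+TRF array (log2 0.79 ± 0.197, unadjusted p = 0.00164).

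nrf-5, a secreted lipid-binding protein, had signals of 1375, 1207, 1196 and 1416 in TRF+H2O2+TRF arrays and 1039, 598, 787, 998 and 698 in control arrays, without overlap (log2 0.68 ± 0.171). aqp-1, a channel for water and glycerol, had signals of 2753, 1130, 1443 and 1175 in TRF+H2O2+TRF arrays and 596, 972, 330, 906 and 771 in control arrays. TRF+H2O2+TRF 1 was the highest, and the log2 fold change of aqp-1 was 1.18 ± 0.327 with it and 0.89 without it. adh-1, an alcohol dehydrogenase with a strong signal, gave 8098, 5283, 5372 and 6399 in TRF+H2O2+TRF arrays and 3165, 4072, 1612, 4983 and 3076 in control arrays. The lowest adh-1 signals were those of control 3, and the groups did not overlap (log2 0.97 ± 0.264).

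flp-18, a FMRFamide-like neuropeptide gene with roles in feeding and locomotion, had signals of 906, 1134, 866 and 1146 in TRF+H2O2+TRF arrays and 540, 671, 800, 824 and 595 in control arrays. The gap between the groups was narrow, and the log2 fold change was 0.57 ± 0.164. cor-1, the coronin that binds actin, had signals of 147, 146, 101 and 147 in TRF+H2O2+TRF arrays and 99.3, 30.2, 77.9, 61.5 and 62.4 in control arrays (log2 1.10 ± 0.311). Its groups came close without overlapping, at TRF+H2O2+TRF 3 and control 1. C17H12.10 (log2 1.49 ± 0.382) and T28A11.16 (1.15 ± 0.298) did not overlap between the groups either. The remaining member of the 12, C29F5.1 (0.91 ± 0.255), did overlap, with 824 in TRF+H2O2+TRF 3 against 1054 in control 4.

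**Figure D2:**
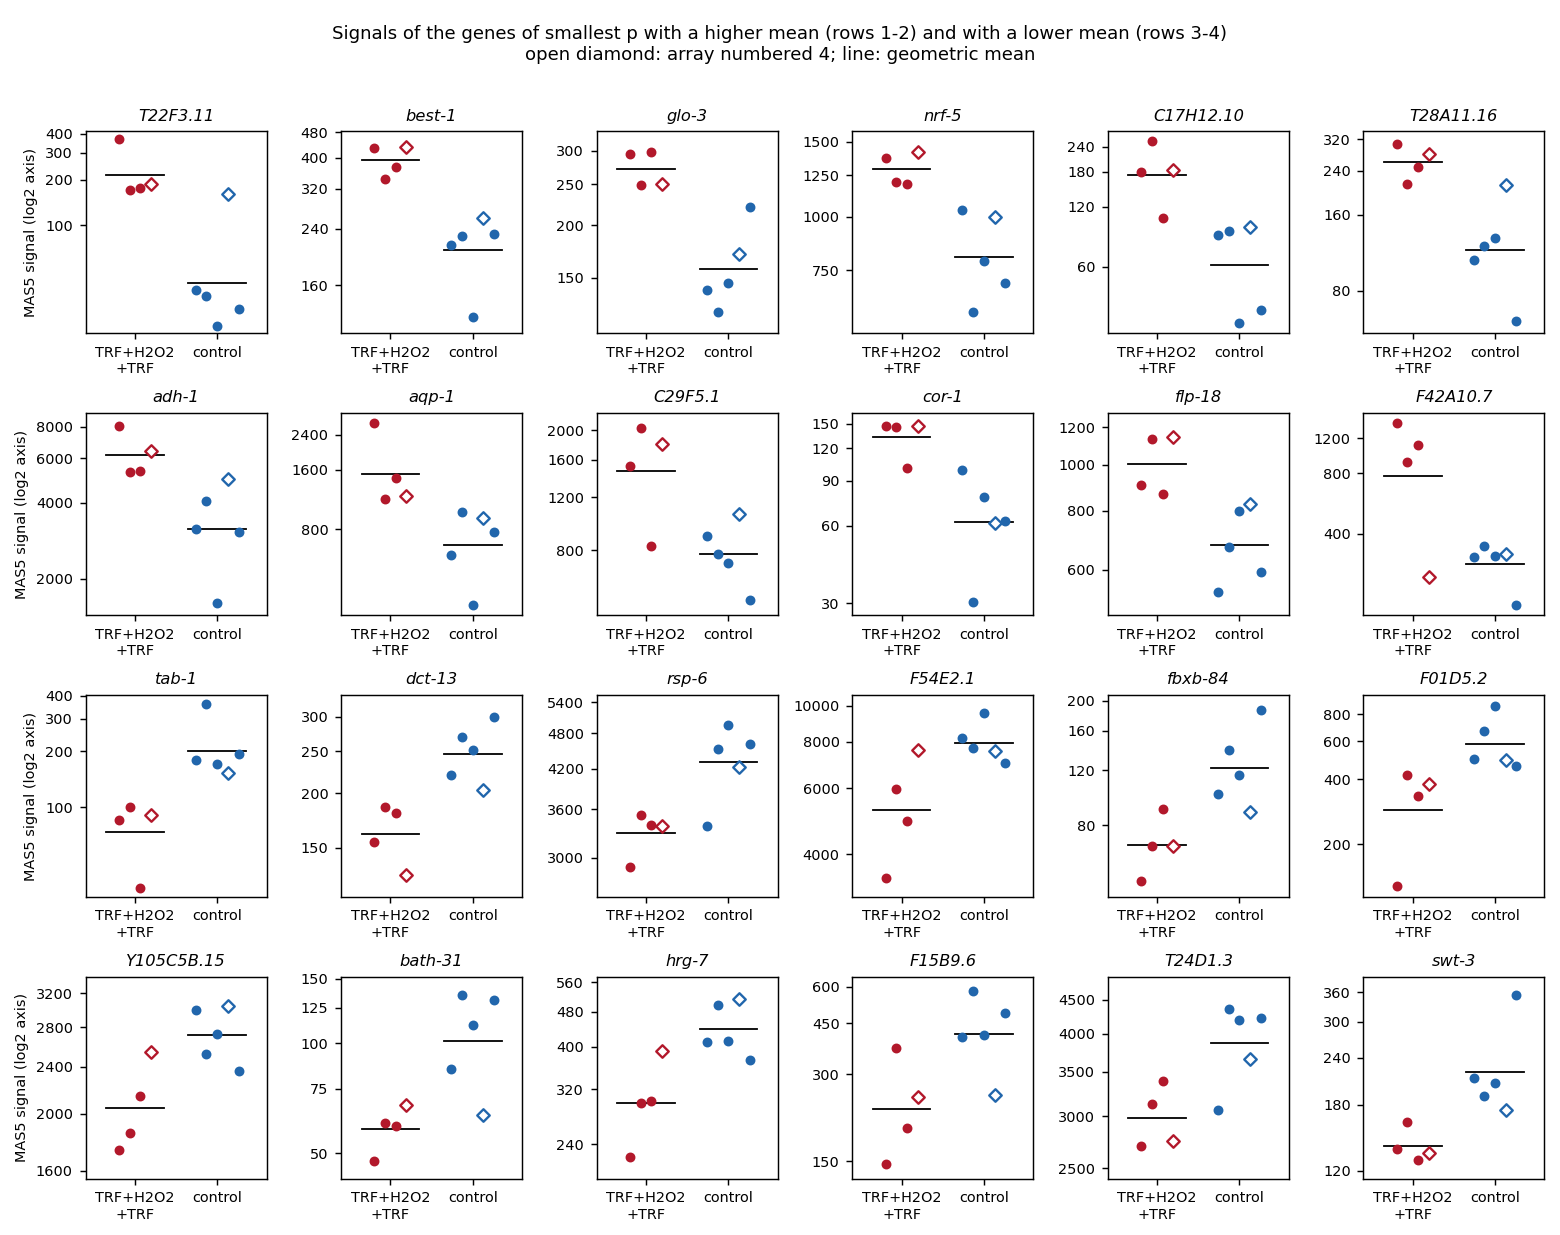
MAS5 signals (log2 axis) of the 12 genes of smallest p with a higher mean in TRF+H2O2+TRF (rows 1 and 2) and the 12 with a lower mean (rows 3 and 4); each point is an array, TRF+H2O2+TRF on the left and control on the right, the open diamond is the array numbered 4 and the line is the geometric mean. Control 4 lies beside the TRF+H2O2+TRF arrays for T22F3.11, and TRF+H2O2+TRF 4 lies among the controls for F42A10.7.

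Among genes with a lower mean, tab-1 led by p. It encodes a homeobox protein named for a touch phenotype, and its signals were 84.8, 100, 36.8 and 91.1 in TRF+H2O2+TRF arrays and 180, 359, 171, 152 and 194 in control arrays. No TRF+H2O2+TRF array reached the lowest control, and the geometric mean was 2.72-fold higher in control (log2 fold change -1.45 ± 0.328, limma 95% interval -2.16 to -0.73, unadjusted p = 0.000795). F01D5.2 had signals of 128, 417, 334 and 379 in TRF+H2O2+TRF arrays and 498, 666, 874, 490 and 459 in control arrays. Its log2 fold change was -1.01 ± 0.323 with all arrays and -0.62 without TRF+H2O2+TRF 1, its lowest array.

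swt-3, of the SWEET family of sugar transporters, had signals of 137, 161, 128 and 134 in TRF+H2O2+TRF arrays and 212, 190, 206, 174 and 353 in control arrays, without overlap (log2 -0.65 ± 0.220). dct-13, named in a screen for genes downstream of DAF-16, had signals of 155, 186, 180 and 130 in TRF+H2O2+TRF arrays and 220, 269, 252, 203 and 300 in control arrays, also without overlap (log2 -0.61 ± 0.188). These 4 genes were the only ones of the 12 whose groups did not overlap.

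The other 8 lower genes overlapped in at least 1 array. rsp-6, a serine-arginine-rich splicing factor, ranged over 2897 to 3520 in TRF+H2O2+TRF and 3382 to 4955 in control (log2 -0.39 ± 0.121). hrg-7, a heme-regulated secreted protein that signals between intestine and neurons, ranged over 224 to 391 in TRF+H2O2+TRF and 374 to 514 in control (-0.56 ± 0.184). The F-box gene fbxb-84 (-0.81 ± 0.257) and bath-31 (-0.79 ± 0.260), whose name stands for a BATH domain, belong to large families of putative ubiquitin ligase adaptors. F54E2.1 (-0.60), Y105C5B.15 (-0.41), F15B9.6 (-0.86) and T24D1.3 (-0.38) are not described further, except that F54E2.1 was at -0.39 without TRF+H2O2+TRF 1.

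Signals of genes known to respond to oxidants overlapped between the groups. sod-3, the inducible mitochondrial superoxide dismutase, had signals of 198, 306, 228 and 330 in TRF+H2O2+TRF arrays and 204, 264, 183, 332 and 232 in control arrays. The ranges lay on top of each other (log2 fold change 0.13, limma 95% interval -0.36 to 0.61). gst-4, a glutathione transferase used as a readout of SKN-1, had signals of 735, 1259, 1398 and 1105 in TRF+H2O2+TRF arrays and 1043, 1729, 588, 1643 and 2084 in control arrays. Controls spanned more than the TRF+H2O2+TRF arrays on either side (log2 -0.24, interval -0.95 to 0.46). gcs-1, which makes the first step of glutathione synthesis, was at 0.13 (interval -0.23 to 0.50) and the peroxisomal catalase ctl-2 at 0.04 (-0.27 to 0.35).

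Among chaperones, hsp-16.2, a small heat shock protein of the cytosol, had signals of 1204, 1785, 2811 and 912 in TRF+H2O2+TRF arrays and 1383, 2410, 2165, 831 and 336 in control arrays. Its log2 fold change of 0.41 had an interval of -0.69 to 1.52, so these arrays could not show a difference of that size. hsp-4 of the endoplasmic reticulum was at -0.06 (interval -0.39 to 0.27) and hsp-6 of the mitochondria at 0.11 (-0.19 to 0.42). Of the transcription factors themselves, daf-16 was at -0.01 and skn-1 at 0.06. The other probe sets of these genes had the opposite sign for 2 of 2 in daf-16 and 1 of 2 in skn-1.

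mtl-1, a metallothionein that binds metals and is driven by DAF-16, had signals of 1471, 1132, 1644 and 1237 in TRF+H2O2+TRF arrays and 1625, 2114, 2282, 1291 and 1601 in control arrays. The groups overlapped and the log2 fold change was -0.36 ± 0.177 (unadjusted p = 0.0620). vit-2, a yolk protein gene, averaged 11330 ± 1046 in TRF+H2O2+TRF (SD, n = 4) and 11300 ± 432 in control (SD, n = 5). hmgr-1, the worm's HMG-CoA reductase and a protein that tocotrienols act on in mammalian cells, averaged 385 ± 120 in TRF+H2O2+TRF and 341 ± 90.5 in control (log2 0.16, interval -0.33 to 0.66).

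Of the 14 genes named whatever their result in this comparison, only F42A10.7 and fat-3 had an unadjusted p under 0.05. The 14 were chosen with earlier results of these data known. Both genes also had a higher mean in TRF than in the same control arrays, so their p here is not an independent check. fat-3 encodes the delta-6 fatty acid desaturase, an early enzyme of polyunsaturated fatty acid synthesis. Its signals were 5582, 2921, 3280 and 2787 in TRF+H2O2+TRF arrays and 2403, 2259, 2681, 2472 and 1709 in control arrays. The groups did not overlap, with a small gap between TRF+H2O2+TRF 4 and control 3 (log2 0.62 ± 0.198, unadjusted p = 0.00874). Without TRF+H2O2+TRF 1, its highest array, the log2 fold change of fat-3 was 0.39. Against the shared controls fat-3 was at 0.76 in TRF and 0.13 in H2O2, and the limma adjusted p of TRF+H2O2+TRF against either was 0.9999, or 0.884 for fat-3 against TRF with the replicate number as a block.

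**Figure D3:**
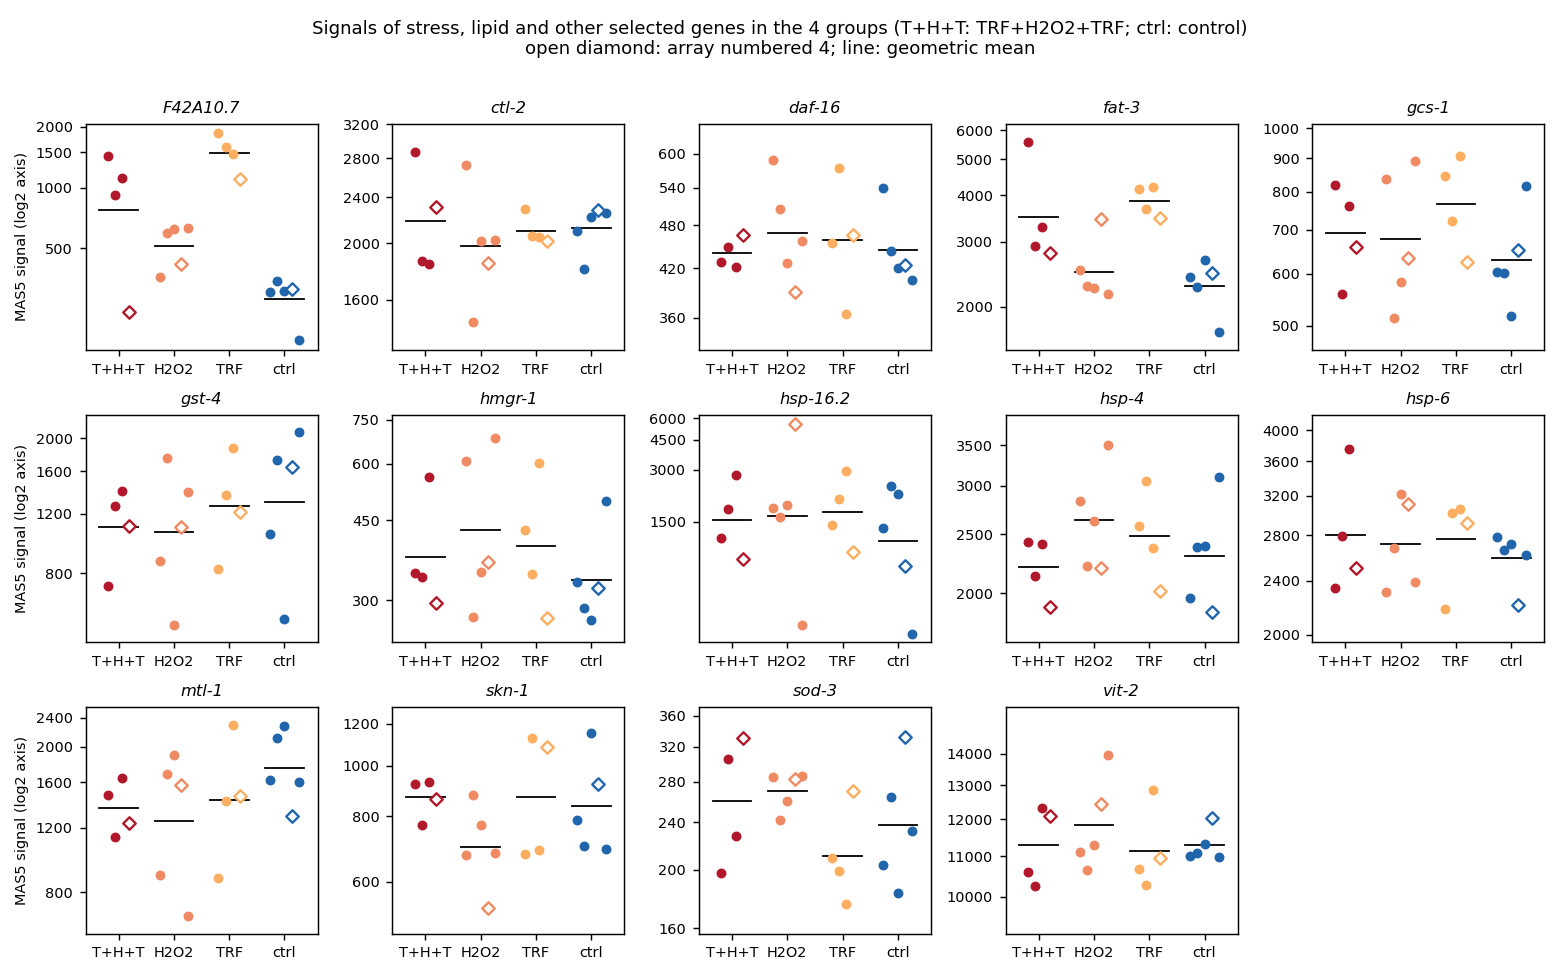
MAS5 signals (log2 axis) of 14 genes, chosen with earlier results of these data known, in TRF+H2O2+TRF, H2O2, TRF and control from left to right. Points are arrays, the open diamond is the array numbered 4 and the line is the geometric mean. The groups overlap for sod-3, gst-4 and hsp-16.2, while for fat-3 all TRF+H2O2+TRF arrays lie above the controls.

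Genes were also grouped into 51 lists of pathways and tissue markers, some of which share genes. The median log2 fold change over all 10286 genes was 0.014, with 53.0% of means higher. Of the lists, 28 had a median above that of all genes and 23 below it, and 23 had 0 members at an unadjusted p under 0.05. No member of any list passed the adjusted threshold, so the counts of members at an unadjusted p under 0.05 stand beside the 1.83% of genes with a higher and 1.00% with a lower mean at that level.

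**Figure D4:**
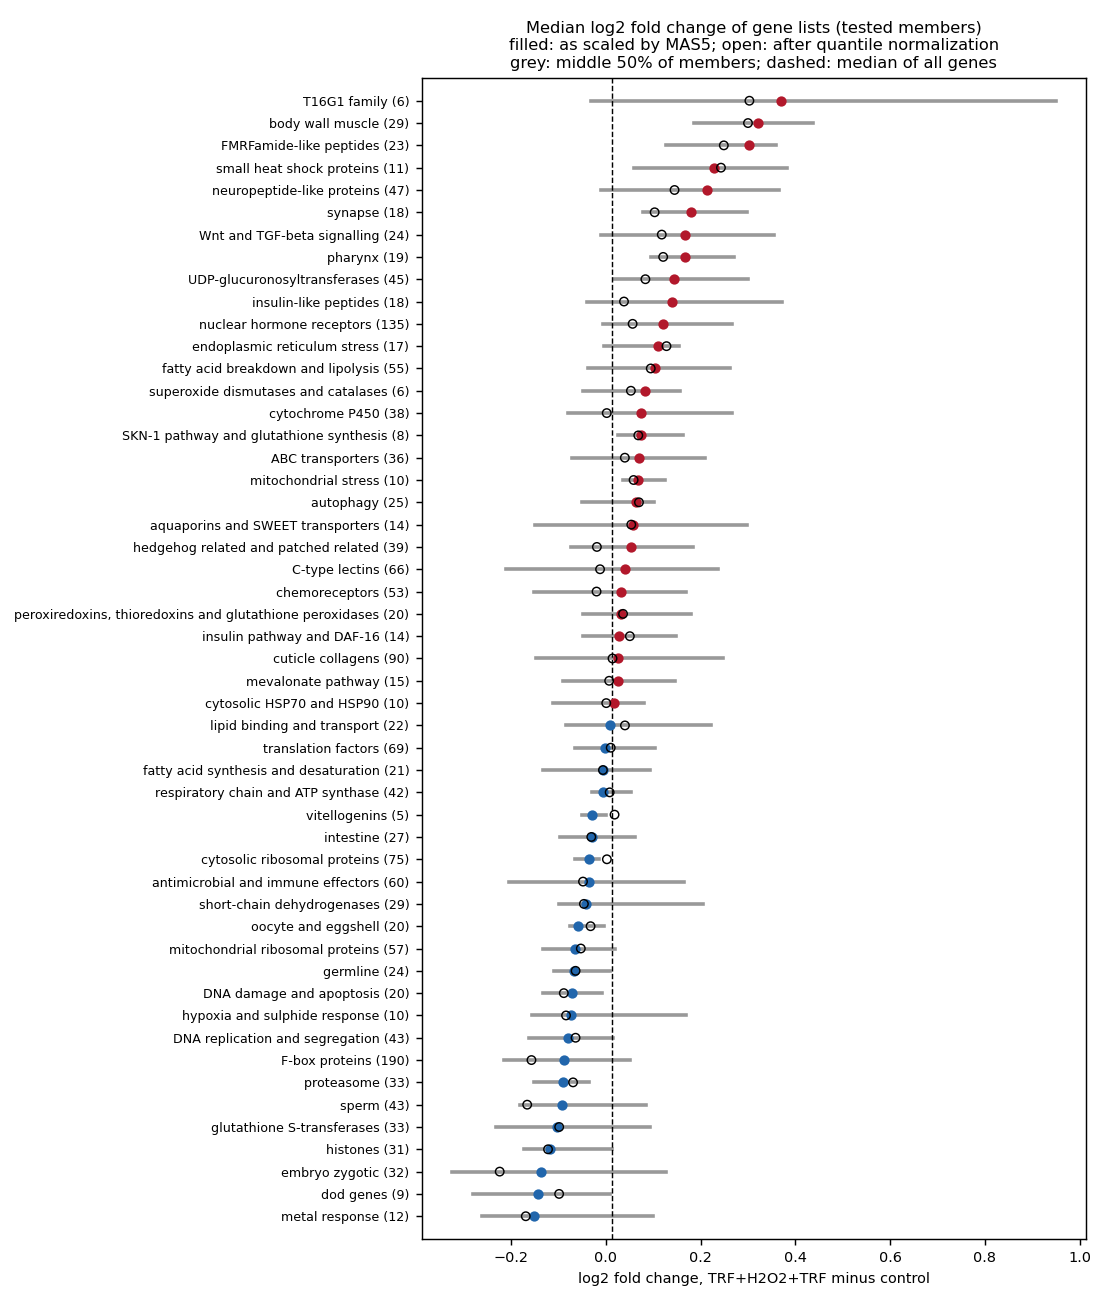
Median log2 fold change (TRF+H2O2+TRF minus control) of the tested members of each gene list, with the number of members in brackets; filled points are as scaled by MAS5, open points after quantile normalization, grey bars the middle 50% of members and the dashed line the median of all genes. The T16G1, body wall muscle and FMRFamide-like peptide lists lie at the top, and the metal response list at the bottom.

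Neuropeptide and muscle genes had the highest medians among the larger lists. Of the 25 FMRFamide-like peptide genes on the array, which encode short signalling peptides of neurons, 23 were tested and 23 of 23 had a higher mean in TRF+H2O2+TRF, with a median log2 fold change of 0.30. At an unadjusted p under 0.05 there were 3, all higher. Besides flp-18 these were flp-32, at 67.99 to 128 in TRF+H2O2+TRF and 38.5 to 76.4 in control (log2 0.80 ± 0.272), and flp-11, a peptide of the sleep-promoting RIS neuron, at 281 to 434 in TRF+H2O2+TRF and 196 to 361 in control (0.49 ± 0.203). The mean log2 signal over the list was 8.86, 8.64, 8.07 and 8.69 in TRF+H2O2+TRF arrays and 8.27, 8.40, 8.27, 8.58 and 7.85 in control arrays. TRF+H2O2+TRF 3 lay below 4 of the 5 controls, and control 5 below all other arrays of both groups. Without control 5 the median was 0.12, and without TRF+H2O2+TRF 3 it was 0.45.

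Neuropeptide-like (nlp) genes had a median of 0.21 (0.11 without TRF+H2O2+TRF 1, 0.38 without TRF+H2O2+TRF 3), with a higher mean in 32 of 47 and an unadjusted p under 0.05 in 3, all higher. They were nlp-57 (log2 0.76 ± 0.297), nlp-80 (0.55 ± 0.236) and nlp-9 (0.47 ± 0.207). The synapse list had a median of 0.18, or 0.11 without control 3, and a higher mean in 15 of 18. Its member of smallest p, cex-1, a calcium-binding calexcitin of neurons, ranged over 661 to 1038 in TRF+H2O2+TRF and 325 to 649 in control, with no overlap (log2 0.75 ± 0.223, unadjusted p = 0.00552). Insulin-like peptides pointed both ways, with a median of 0.14 (0.033 without TRF+H2O2+TRF 1) and a lower mean for ins-2, at 250 to 457 in TRF+H2O2+TRF and 294 to 1252 in control (-0.89 ± 0.400).

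Body wall muscle genes had a higher mean in 25 of 29 and a median of 0.32. The 4 at an unadjusted p under 0.05 were all higher. They were mup-2, a troponin T, with 1467 to 3050 in TRF+H2O2+TRF and 1041 to 2096 in control (log2 0.72 ± 0.253), unc-15, the paramyosin of thick filaments (0.52 ± 0.190), unc-87, a calponin-like protein of thin filaments (0.64 ± 0.237), and myo-3, a body wall myosin heavy chain (0.65 ± 0.268). The list's mean log2 signal was 10.63, 10.62, 9.99 and 10.60 in TRF+H2O2+TRF arrays and 10.54, 10.07, 10.01, 10.32 and 9.84 in control arrays. TRF+H2O2+TRF 3 again lay among the lowest and control 1 near the highest, so the groups overlapped. The median was 0.22 without control 5 and 0.51 without TRF+H2O2+TRF 3. Pharyngeal genes had a higher mean in 17 of 19 with a median of 0.17, 0 at an unadjusted p under 0.05, and a median of 0.080 without control 5.

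Germline markers ran the other way across single arrays. The germline list averaged 9.91, 10.04, 10.43 and 9.91 on the log2 scale in TRF+H2O2+TRF arrays and 10.12, 10.08, 9.95, 9.98 and 10.47 in control arrays. Its 2 highest arrays, TRF+H2O2+TRF 3 and control 5, were the arrays lowest for FMRFamide-like peptides. In the comparison 7 of 24 germline genes had a higher mean (median log2 fold change -0.066, and 0.041 without control 5), as did 5 of 20 oocyte and eggshell genes (median -0.059, and 0.010 without TRF+H2O2+TRF 4 or 0.0082 without control 5). The part of germline content in the neuropeptide and muscle values was not tested.

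**Figure D5:**
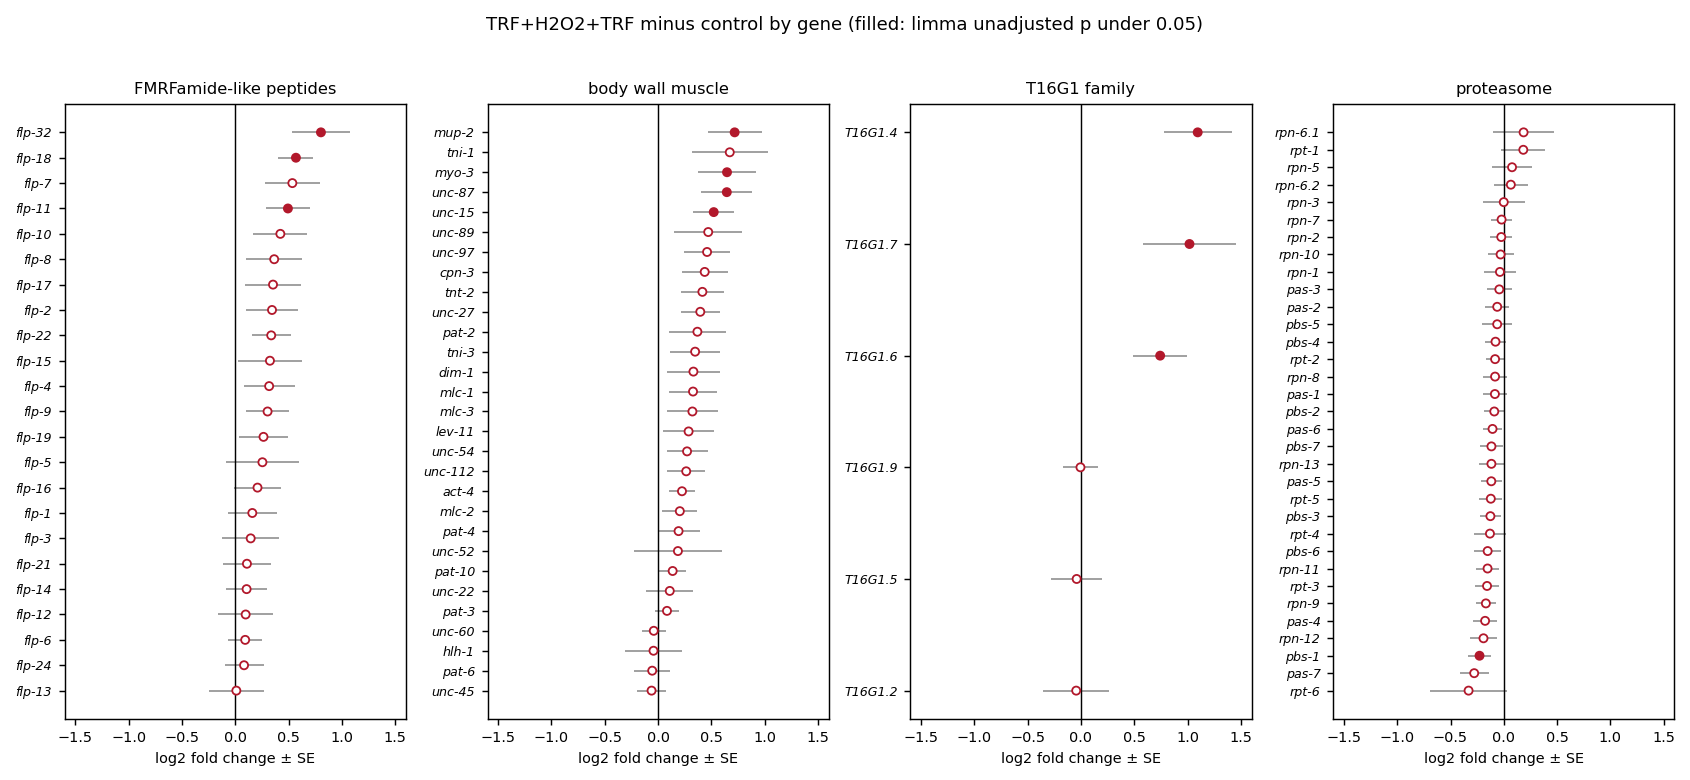
Log2 fold change (TRF+H2O2+TRF minus control) of each tested gene in 4 lists, with bars of 1 SE; filled points have an unadjusted limma p under 0.05. All 23 FMRFamide-like peptide genes lie to the right of 0, 25 of 29 body wall muscle genes do, T16G1 genes form a higher set of 3 beside 3 near 0, and 29 of 33 proteasome genes lie to the left.

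The T16G1 family, a cluster of related genes that the files name only by sequence identifier, split into 2 sets. T16G1.4 ranged over 85.4 to 197 in TRF+H2O2+TRF and 29.1 to 74.7 in control without overlap (log2 1.09 ± 0.320, unadjusted p = 0.00483). T16G1.6 was at 0.74 ± 0.251 and T16G1.7 at 1.02 ± 0.437, with overlap in both. T16G1.7 was at 0.69 without TRF+H2O2+TRF 1 and at 1.42 without TRF+H2O2+TRF 4. T16G1.2 (-0.04), T16G1.5 (-0.04) and T16G1.9 (0.00) lay at 0. Related genes can share probes, so values of single members are uncertain. This list too was chosen with earlier results of these data known. Against the shared controls, the TRF group had 0.85, 0.66 and 1.51 for T16G1.4, T16G1.6 and T16G1.7, and the H2O2 group had 0.34, 0.23 and 0.50.

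Fat breakdown genes had a higher mean in 35 of 55, a median of 0.10 (0.050 without TRF+H2O2+TRF 1) and 3 at an unadjusted p under 0.05, all higher. acs-2, a mitochondrial acyl-CoA synthetase that primes fatty acids for beta-oxidation, ranged over 852 to 2910 in TRF+H2O2+TRF and 391 to 1180 in control (log2 0.84 ± 0.368, or 0.45 without TRF+H2O2+TRF 1). cpt-4, of the carnitine palmitoyltransferase family, was at 0.67 ± 0.268 and acs-5 at 0.39 ± 0.172. Fatty acid synthesis and desaturation genes had a median of -0.0052, and fat-3 was their only member at that level. In the mevalonate pathway, which leads from HMG-CoA to isoprenoids, 8 of 15 means were higher and 0 had an unadjusted p under 0.05. Among lipid-binding proteins, far-7, of the fatty acid and retinol binding family, ranged over 853 to 1785 in TRF+H2O2+TRF and 666 to 1232 in control (0.52 ± 0.226, or 0.31 without TRF+H2O2+TRF 1).

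Nuclear hormone receptor and detoxification genes varied by family. Nuclear hormone receptors, a large family of ligand-regulated transcription factors, had a higher mean in 99 of 135 and a median of 0.12, or 0.057 after quantile normalization and 0.061 without TRF+H2O2+TRF 1. An unadjusted p under 0.05 was found for 3 of the 135, near the 1.83% of all genes with a higher mean at that level. They were nhr-101 (0.66), nhr-42 (0.50) and nhr-193 (0.72). UDP-glucuronosyltransferases, which conjugate sugars to foreign compounds, had a higher mean in 35 of 45 and a median of 0.14, or 0.056 without control 2. ugt-12 ranged over 179 to 202 in TRF+H2O2+TRF and 107 to 168 in control, without overlap (0.52 ± 0.187).

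Of the cytochrome P450 genes, oxidases of lipids and foreign compounds, cyp-34A9 (356 to 842 in TRF+H2O2+TRF, 240 to 345 in control, log2 0.72 ± 0.239, or 0.44 without TRF+H2O2+TRF 1) and cyp-34A2 (0.59 ± 0.236) had a higher mean. The median of this family was 0.074 and went to 0.0019 after quantile normalization. mrp-1, an ABC transporter that exports conjugates, ranged over 338 to 475 in TRF+H2O2+TRF and 206 to 333 in control, with no overlap (0.48 ± 0.182). Short-chain dehydrogenases had dhs-23 (0.85) and dhs-4 (0.67) on the higher side although 18 of 29 means were lower. Glutathione transferases had a median of -0.10, with a lower mean in 20 of 33 and only gst-5 at an unadjusted p under 0.05 (623 to 844 in TRF+H2O2+TRF, 768 to 1591 in control, log2 -0.47 ± 0.199).

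Antioxidant enzymes and stress chaperones held no member at that level apart from clpp-1. Superoxide dismutases and catalases had a median of 0.083 over 6 genes (-0.044 without TRF+H2O2+TRF 1), and peroxiredoxins, thioredoxins and glutathione peroxidases 0.032 over 20 (-0.022 without TRF+H2O2+TRF 4), where gpx-3 had the smallest p (0.61 ± 0.311, limma 95% interval -0.068 to 1.28). The 8 genes of the SKN-1 pathway and glutathione synthesis all had a slightly higher mean (median 0.073, 0.0073 to 0.29). The 10 mitochondrial stress genes did too (median 0.067, or 0.18 without TRF+H2O2+TRF 4). Among them clpp-1, the mitochondrial protease ClpP, ranged over 1022 to 1316 in TRF+H2O2+TRF and 943 to 985 in control (0.26 ± 0.116). A further probe set of clpp-1 had the opposite sign. Small heat shock proteins had a median of 0.23 over 11 genes, and 0.017 without control 5.

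Innate immunity genes were split. Of 66 C-type lectins, carbohydrate-binding proteins many of which are secreted in the gut, 4 had a higher and 3 a lower mean at an unadjusted p under 0.05. clec-70 ranged over 57.7 to 195 in TRF+H2O2+TRF and 24.1 to 62.1 in control (1.07 ± 0.369), clec-47 was at 0.80, clec-31 at 0.65 and clec-65 at -0.42. Of 60 antimicrobial and immune effectors 4 were higher and 1 lower. thn-1, a thaumatin-like protein, was at 0.70 ± 0.263, ilys-2, an invertebrate lysozyme, at 0.97 ± 0.383, fipr-2 at 0.69 ± 0.300 and lys-2, a lysozyme with a stronger signal, at -0.65 ± 0.299. Without TRF+H2O2+TRF 1, ilys-2 was at 0.59, lys-2 at -0.26 and clec-65 at -0.26. The list medians were 0.041 for lectins and -0.036 for effectors, and the lectin median was -0.012 after quantile normalization. Without TRF+H2O2+TRF 1 the lectin median was -0.0060, and without TRF+H2O2+TRF 3 the effector median was 0.060.

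Of 33 proteasome subunits, parts of the protease that breaks down ubiquitin-tagged proteins, 29 had a lower mean in TRF+H2O2+TRF, with a median of -0.090 (-0.069 after quantile normalization), and each array left out in turn gave -0.14 to -0.055. The shifts were small, with 1 subunit at an unadjusted p under 0.05. It was pbs-1, a beta subunit of the core particle, at 4653 to 5477 in TRF+H2O2+TRF and 5074 to 6800 in control (-0.23 ± 0.104). The list's mean log2 signal was 11.52, 11.75, 11.70 and 11.64 in TRF+H2O2+TRF arrays and 11.68, 11.81, 11.74, 11.69 and 11.76 in control arrays, with overlap. Of 25 autophagy genes, 17 had a higher mean, with a median of 0.063, or 0.017 without control 2.

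F-box and Skp1-related genes, parts of the SCF ubiquitin ligases, had a lower mean in 131 of 190, with 9 lower and 1 higher at an unadjusted p under 0.05. Among the lower were skr-8 (1982 to 2380 in TRF+H2O2+TRF, 2147 to 3788 in control, log2 -0.44 ± 0.150), skr-13 (-0.39 ± 0.141) and skr-9 (-0.42 ± 0.153). These Skp1 copies are near-identical paralogs whose probe sets can share target RNA, so they are uncertain as separate genes and their count is not one of independent genes.

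Lists of protein synthesis genes had medians close to that of all genes. Cytosolic ribosomal proteins had a lower mean in 62 of 75 with a median of -0.035, which turned to 0.0022 after quantile normalization. Mitochondrial ribosomal proteins had a median of -0.066, and mrpl-10 ranged over 1193 to 1294 in TRF+H2O2+TRF and 1371 to 1567 in control, without overlap (-0.23 ± 0.103). The 5 vitellogenins had a median of -0.029, which turned to 0.018 after quantile normalization. Histones had a median of -0.12 (-0.039 without control 3), with hil-2, a linker histone, at -0.25 ± 0.0985, and the embryo list -0.14 (-0.064 without control 3), with the T-box factor tbx-38 at -0.55 ± 0.247. The sperm list, with a median of -0.093, was at -0.36 without control 4 and at 0.22 without TRF+H2O2+TRF 4.

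Growth factor and transport genes gave single members. In the Wnt and TGF-beta list sma-4, a Smad protein, was at 0.37 ± 0.157 and unc-129, a TGF-beta ligand that guides axons, at -0.41 ± 0.165, with a median of 0.17 over 24 genes, or 0.064 without TRF+H2O2+TRF 1. In the aquaporin and SWEET list aqp-1 and swt-3 stood with swt-6 (-0.85 ± 0.389). grd-3, a hedgehog-related protein, ranged over 213 to 271 in TRF+H2O2+TRF and 294 to 383 in control without overlap (-0.47 ± 0.161). Of 27 intestine genes 1 had an unadjusted p under 0.05, the gut protease cpr-3 (-0.52 ± 0.213, or -0.29 without TRF+H2O2+TRF 3). Of 53 chemoreceptors 1 did, srsx-34 (0.53 ± 0.236). Over all genes, 1.83% were higher and 1.00% lower at that level. The medians of these 2 lists were -0.030 and 0.032.

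The H2O2 and TRF groups share the control arrays with this comparison, so their differences from control are set beside it only as values. TRF+H2O2+TRF differed from TRF at an adjusted p under 0.05 for 0 of 13529 probe sets (198, or 1.46%, at an unadjusted p under 0.05), and from H2O2 for 0 (302, or 2.23%), both with limma. The methods' t-test gave 251 and 366 at an unadjusted p under 0.05, and 0 after adjustment. Replicate numbers paired the TRF+H2O2+TRF and TRF arrays in the data, with residual correlations of 0.35 to 0.686. With the replicate number as a block, 874 probe sets had an unadjusted p under 0.05 between them, 444 higher and 430 lower in TRF+H2O2+TRF, against 198 without it. In that fit 1 gene passed, C30E1.9, at a log2 fold change of 1.79 ± 0.162 and a limma adjusted p of 0.0361. This gene lies outside the rule for named genes and was chosen after its value was seen.

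The genes in the next sentences were picked after their values were seen. Some named genes had values near those of the H2O2 group. C29F5.1 was at 0.91 in TRF+H2O2+TRF, 0.90 in H2O2 and 0.17 in TRF, all minus control. cex-1 was at 0.75 in TRF+H2O2+TRF, 0.85 in H2O2 and 0.14 in TRF. mup-2 was at 0.72 in TRF+H2O2+TRF, 0.75 in H2O2 and 0.16 in TRF.

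Others had values near those of the TRF group. cpt-4 was at 0.67 in TRF+H2O2+TRF, -0.08 in H2O2 and 0.72 in TRF, and acs-2 was at 0.84 in TRF+H2O2+TRF, 0.20 in H2O2 and 0.86 in TRF. clec-47 was at 0.80 in TRF+H2O2+TRF, 0.25 in H2O2 and 0.78 in TRF. For each of these 6 genes the limma adjusted p of TRF+H2O2+TRF against H2O2 and against TRF was 0.9999 without a block. With the replicate number as a block, 0 of 109 named genes had a limma adjusted p under 0.05 between TRF+H2O2+TRF and TRF, and the smallest, 0.0798, was that of C29F5.1 (log2 fold change 0.74 ± 0.0894) and unc-87 (0.62 ± 0.0722).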

How the data were processed

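The deposited values are MAS5 intensity values on a linear scale, made by the authors with MAS5 in the Affymetrix Expression Console, per the submitters' processing notes (versions and genome build are not given in the sources used here). The mean without the extreme 2% at each end was 500.1 on every array, so arrays were already scaled to a common mean. Groups and numbers came from sample titles.

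From there, log2(signal + 1) was taken, the array's own 77 control probe sets were dropped, and probe sets at or above the 40th percentile of mean log2 signal over all 18 arrays were kept (geometric mean signal 47.0). Symbols came from the platform's probe table: 12848 kept probe sets had 1 symbol, 442 several and 239 none here. A gene was represented by its 1-symbol probe set of highest mean.

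Tests used R 4.3.3 with limma 3.58.1 (lmFit, eBayes with a variance trend, two-sided, Benjamini-Hochberg over all kept probe sets, threshold 0.05). Errors are limma standard errors or SDs; list values are medians and counts without a test. Named were the 12 genes of smallest p in each direction, up to 4 members per list at an unadjusted p under 0.05 (or the 1 of smallest p), and 14 stress, lipid and other genes. The members and lists were chosen with earlier results of these data known. The pipeline was also run on simulated data with independent noise, which lack the correlations between these arrays, so that run is no check of the results here. Alternatives covered filter, normalization, pseudocount, variance model, array weights, replicate block, t-test, all 18 arrays in 1 fit, the arrays numbered 5, and each array left out. Array number limits the precision. No sequences or coordinates were used here.

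Replicate numbers are shared between groups in the titles. The residual correlation of equal numbers was -0.147 to 0.494 for TRF+H2O2+TRF and control, which are not treated as paired, and 0.35 to 0.686 for TRF+H2O2+TRF and TRF, where each array matched its own number best (4 of 4). Unless a block is named, values come from the fit without it; for TRF+H2O2+TRF against TRF the blocked count and adjusted p are given beside it.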

Additional observations from a re-analysis of the deposited data

Results flagged for a closer look

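Among 218 sets of values, 1 per named gene and group, 15 held an array whose gap to the nearest other array was large against the range of its group. Chance gives about 1 in 20 such sets. In TRF+H2O2+TRF, T22F3.11 was at 371 in array 1 (others 170 to 187) and, in control, at 162 in array 4 (others 22 to 37.4). tab-1 was at 36.8 in TRF+H2O2+TRF 3 (others 84.8 to 100) and at 359 in control 2 (others 152 to 194). cex-1 was at 661 in TRF+H2O2+TRF 3 (others 1020 to 1040) and at 325 in control 5 (others 583 to 649). Further arrays of TRF+H2O2+TRF were number 3 for cor-1 at 101 (others 146 to 147) and number 2 for grd-3 at 271 (others 213 to 220).

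In control, F42A10.7 was at 176 in array 5 (others 304 to 345), swt-3 at 353 in array 5 (others 174 to 212) and clec-70 at 24.1 in array 5 (others 50.5 to 62.1). Control 4 was at 344 for acs-5 (others 248 to 269) and at 2210 for hsp-6 (others 2620 to 2780). best-1 was at 127 in control 3 (others 213 to 258), and far-7 at 1230 in control 2 (others 666 to 795).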

How the results depend on the processing

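The count of called probe sets between TRF+H2O2+TRF and control was 0 under every alternative except 2 that left out an array, and ranged over 0 to 1 with single arrays left out. F42A10.7 was called without TRF+H2O2+TRF 4 (log2 fold change 2.00) and T22F3.11 without control 4 (2.80). Leaving out both arrays numbered 4, an alternative chosen after seeing the data, gave 0 calls and 357 probe sets at an unadjusted p under 0.05. That count, 384 over all arrays, was 733 without the filter, which tests more probe sets, 239 with the filter at the 60th percentile, which tests fewer, 647 with the replicate block, and 199 (without TRF+H2O2+TRF 1) to 737 (without TRF+H2O2+TRF 3) with single arrays left out; it was 596 without control 1 and 246 without control 2. The cause of the last 5 was not tested. With the replicate block the smallest adjusted p was 0.926, and 3 of 4 arrays matched their own number best. TRF+H2O2+TRF against TRF gave 1 call with the replicate block (874 probe sets at an unadjusted p under 0.05) and 0 otherwise, and TRF+H2O2+TRF against H2O2 gave 0 throughout. None of the 75 named genes with an unadjusted p under 0.05 changed sign under these alternatives, and 8 of the other 34 did. The 75 were separated by p on these same arrays, which made sign changes unlikely in advance. The contrast is therefore no check of these genes. The T16G1 median was -0.0046 and the metal response median 0.039 without the filter. The number of arrays limits all of these values.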
